A study of Danio rerio with 12 samples.

Results

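Ventricles of adult zebrafish at 7 days post-amputation (dpa) were compared with uninjured ventricles, with 3 dpa ventricles beside them, to see which transcripts were still high, had faded or were first high by 7 dpa. Of 25281 genes in the tables, 12357 were included because the larger of the authors' mean levels of the 7 dpa and the uninjured group was at least 1 RPKM, that is, reads per kilobase of exon and per 1000000 mapped reads. The state "uninjured" held 1 library of wild-type (WT) and 1 of dusp6 pt30a/pt30a mutant hearts, 3 dpa held the same pair, and so did 7 dpa. All fish were aged 6 months to 1 year, the injured ones had the ventricular apex cut off, and the study pooled several hearts for each condition, as its methods state for uninjured and 3 dpa. The labels place the uninjured and 3 dpa libraries in experiment 1 and name no experiment for 7 dpa. A difference between experiments, if there was one, cannot be told apart from that of 7 dpa. As in the study, both genotypes were combined by injury state, so the spread within a state holds the difference between WT and mutant as well as any other difference between libraries, and p-values measure this spread alone.

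Zebrafish rebuild a cut ventricle by division of existing cardiomyocytes, helped by an epicardium and an endocardium that respond to the wound and by a transient fibrin and collagen matrix with macrophages in it. Dusp6 is a phosphatase that switches off the kinase ERK. Cell cycle genes act in order: the S phase set copies the DNA, and the G2/M set, driven by the transcription factor FoxM1, builds the spindle and parts the chromosomes.

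The 7 dpa level used here was 1 pooled value per gene, the larger of the 2 group means. The study's own fold changes and p-values beside it were not used. Where the pooled value was above the mean of the uninjured libraries it was the authors' 7 dpa mean, as for 6827 of 12357 genes (55.2%). For the other 5530 genes it equalled the uninjured mean. Their 7 dpa level was at or below uninjured, and the pooled value does not give its size. No fall at 7 dpa was therefore measured here. A mean of 2 RPKM values still carries the whole reads behind it, and the 2 read counts could be worked out for 13092 of 13092 genes of the whole table that were above uninjured. The same calculation on 3 dpa, where the reads are known, gave both counts exactly for 15593 of 15593 genes. The 7 dpa libraries are called A and B, because the calculation does not tell which is WT. Mapped reads, in units of 1000000, were 76.1 and 72.8 in the uninjured libraries, 62.7 and 64.5 at 3 dpa, and 77.1 (A) and 67.8 (B) at 7 dpa. Since the reads of 5530 genes are not known, no test across genes was run at 7 dpa.

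The libraries held the transcripts of ventricle. The myosin light chain gene myl7 was at 15195 and 15514 RPKM in the uninjured libraries and at 5924 and 10293 RPKM at 3 dpa, with the 7 dpa mean at or below uninjured. The endothelial cadherin gene cdh5 was at 31.76 and 31.98 RPKM in uninjured hearts, at 26.3 and 32.8 at 3 dpa and at 37.2 (A) and 33.2 (B) at 7 dpa. The dusp6 transcript itself was at 25.4 RPKM in WT and 52.2 in mutant uninjured hearts, at 84.7 and 103.0 at 3 dpa, and at 35.9 (A) and 71.1 (B) at 7 dpa, so that its level is not low in the mutant libraries and does not check their label.

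A gene was called higher at 7 dpa by a rule of size: the authors' mean above both uninjured libraries and at least 2-fold over their mean, with 0.1 RPKM added to both. At 3 dpa a gene was higher, or lower, where both libraries lay outside both uninjured libraries with the same fold. By these rules 705 of 12357 genes (5.71%) were higher at 7 dpa, whereas 1713 (13.9%) were higher and 268 (2.17%) lower at 3 dpa. Of the 705 genes, 648 had both 7 dpa libraries above both uninjured libraries. Of the 12357 genes, 673 were included through their 7 dpa level alone and so had to be above uninjured. Among the 11684 genes with an uninjured mean of at least 1 RPKM, 397 (3.4%) were higher. Both time points were set against the same uninjured libraries, so a low value there raises both folds. The median over all members was 0.05 at 7 dpa and 0.22 at 3 dpa on the log2 scale.

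The 3 dpa counts depended on the scaling and on single libraries. After rescaling with TMM factors, which shifted 3 dpa over uninjured by -0.32 on the log2 scale, 1137 genes were higher and 759 lower. Without the 3 dpa mutant library the counts were 2577 and 876, without the 3 dpa WT library 1076 and 221, and without the uninjured mutant library 1806 and 425. The edgeR quasi-likelihood test of 3 dpa against uninjured, over 20408 genes, called 0 genes at an adjusted p of 0.01, with 2768 genes higher and 1507 lower at an unadjusted p under 0.05. DESeq2 called 1256 higher and 268 lower on the same counts. Without the 3 dpa mutant library the quasi-likelihood test called 168 higher and 5 lower. The lowest adjusted p of the quasi-likelihood test was 0.067, which cdk1 shared at a log2 fold change of 3.93 (SE 0.37), and foxm1 at 3.44 (SE 0.41). The rules of size below therefore describe levels and their overlap, and for 3 dpa no gene passed this test.

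Of the 1713 genes higher at 3 dpa, 532 were still higher at 7 dpa (lasting), 1065 were above uninjured but under the rule (partly faded), and 116 were at or below uninjured (faded). Another 112 genes were higher at 7 dpa after a 3 dpa mean above the uninjured libraries that missed the 3 dpa rule (intermediate), and 59 were higher at 7 dpa with a 3 dpa mean no higher than the higher uninjured library (appearing). The remaining 2 of the 705 genes, sgsm2 and HIST2H4B, were lower at 3 dpa. A comparison of 7 dpa with 3 dpa shares no control library, but the 1713 genes were chosen by high values in these same 3 dpa libraries. This choice favours a 7 dpa value below them, and the 116 faded genes lie below both by definition. By this comparison, 1330 of the 1713 genes had a 7 dpa mean below both 3 dpa libraries, 362 lay between them and 21 lay above both. The same place below both 3 dpa libraries was found for 4348 of the 8622 genes whose place is known. For 3735 genes it is not known. A gene at or below uninjured at 7 dpa could be placed only as below both, which raises this share. In the 532 lasting genes the 7 dpa mean was below both 3 dpa libraries in 316, between them in 195 and above both in 21, and the median log2 of 7 dpa over 3 dpa was -0.89. This median and the list medians of 7 dpa over 3 dpa below share the choice by the 3 dpa libraries. Levels at 7 and 3 dpa are set side by side in RPKM without TMM rescaling. A faded gene had to have an uninjured mean of at least 1 RPKM to be included, so the faded class leaves out genes of lower level. Outside the 12357, 716 genes with uninjured and 7 dpa means under 1 RPKM were higher at 3 dpa with a 3 dpa mean of at least 1 RPKM.

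**Figure D1:**
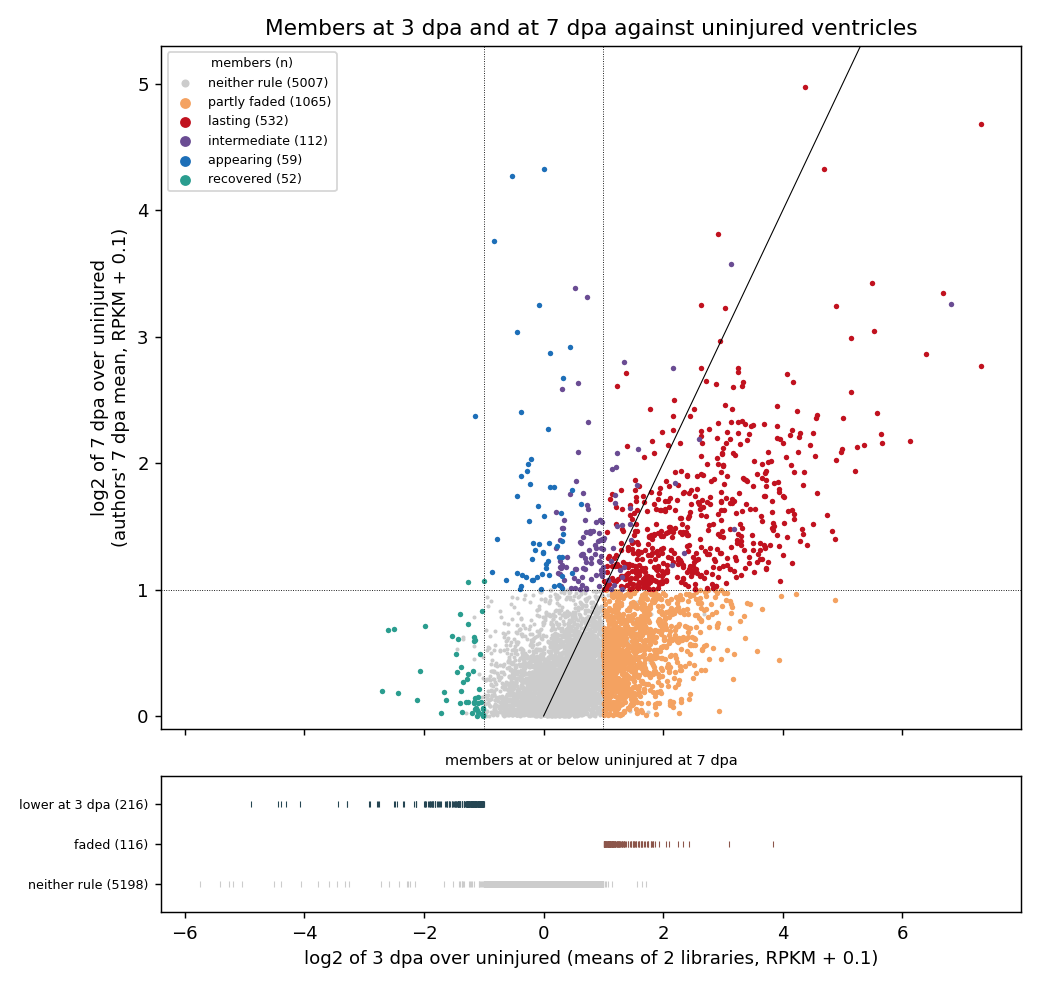
Each point of the upper panel is 1 gene above uninjured at 7 dpa, by log2 of 3 dpa over uninjured (x) and log2 of the authors' 7 dpa mean over uninjured (y), both with 0.1 RPKM added, coloured by class with dotted lines at the 2-fold rule and a line of equality. The lower panel marks the 5530 genes at or below uninjured at 7 dpa by their 3 dpa value alone; most of the 532 lasting genes lie below the line of equality, and the 59 appearing genes lie left of the 2-fold line of 3 dpa.

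The G2/M and mitosis list had 78 genes in the tables, of which 39 were included. The rest had uninjured and 7 dpa means under 1 RPKM, so the counts leave out genes that fell back below this level. Of the 39, 30 had an uninjured mean under 1 RPKM and entered through their 7 dpa level alone, so that they had to be above uninjured. Of the other 9, 8 were higher at 3 dpa and 2 at 7 dpa. Of the 39, 38 were higher at 3 dpa and 31 at 7 dpa, and the median log2 over uninjured was 3.16 at 3 dpa and 1.52 at 7 dpa. None faded, but only the 9 genes with an uninjured mean of at least 1 RPKM could be classed so. The 7 dpa mean of 37 of the 39 was below both 3 dpa libraries. Their summed level was 36.6 and 41.8 RPKM in uninjured hearts, 362.2 and 209.8 at 3 dpa, and 97.4 (A) and 87.8 (B) at 7 dpa, sums that the way of inclusion helps to set. cdk1, the kinase that starts mitosis (ENSDARG00000087554, GRCz11 chromosome 17, 20923691 to 20929461, plus strand), was at 0.99 and 1.71 RPKM in uninjured hearts, 35.7 and 19.8 at 3 dpa, and 7.24 (A) and 5.96 (B) at 7 dpa. Both 7 dpa libraries stood between the uninjured and the 3 dpa libraries.

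prc1b, which bundles microtubules of the midzone, was at 0.36 and 0.59 RPKM uninjured, 9.74 and 7.35 at 3 dpa, and 2.86 and 3.27 at 7 dpa, a log2 of 2.45 over uninjured. plk1, the kinase polo, was at 0.59 and 0.74 RPKM, then 12.7 and 6.90, then 1.82 and 1.90. ccnf, cyclin F, was at 1.17 and 2.16 RPKM, then 7.52 and 6.22, then 2.47 and 1.88, and was partly faded, with library B inside the uninjured range. The genes foxm1, hmmr and cenpf stood below 1 RPKM in uninjured hearts and at 7 dpa and so outside the 12357. foxm1 (ENSDARG00000003200, chromosome 4, 5807964 to 5831522, minus strand) was at 0.12 and 0.20 RPKM, then 4.38 and 2.25, then 0.94 (A) and 0.83 (B). hmmr, a hyaluronan receptor that also sits on the spindle, was at 0.10 and 0.22 RPKM, then 5.41 and 2.65, then 0.74 and 0.70. Both were above both uninjured libraries and below both 3 dpa libraries in both 7 dpa libraries. cenpf, a centromere protein, was at 0.09 and 0.19 RPKM, then 3.22 and 2.18, then 0.61 and 0.46. Also outside were ccnb3 and ect2, both partly faded, and g2e3, lasting by the rule. ccnb3 was at 0.09 and 0.22 RPKM, then 2.68 and 1.24, then 0.28 and 0.22. ect2 was at 0.15 and 0.14 RPKM, then 1.37 and 0.88, then 0.41 and 0.33. g2e3 was at 0.04 and 0.08 RPKM, then 3.31 and 1.44, then 0.25 and 0.23.

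S phase genes had a smaller distance between 3 and 7 dpa. Of 51 included, 34 were higher at 3 dpa and 27 at 7 dpa, and the 7 dpa mean was below both 3 dpa libraries in 20. In this list 23 of the 51 entered through 7 dpa alone, and of the other 28, 15 were higher at 3 dpa and 9 at 7 dpa. Among the members higher at 3 dpa the median log2 of 7 dpa over 3 dpa was -0.72, against -1.57 for the G2/M list. The difference between the lists was not tested. pcna, the sliding clamp of DNA polymerase, was at 12.6 and 12.6 RPKM in uninjured hearts, 83.0 and 33.5 at 3 dpa, and 39.5 (A) and 39.0 (B) at 7 dpa. The 7 dpa libraries lay between the 3 dpa libraries, which differed between WT and mutant. tyms, thymidylate synthase, was at 0.99 and 0.99 RPKM, then 15.3 and 6.45, then 6.34 and 6.80, and tk1, thymidine kinase, at 0.31 and 0.44, then 5.46 and 3.43, then 3.36 and 2.86. Of the p53 and CDK inhibitor list, 5 of 19 were higher at 7 dpa, led by phlda3 with 1.68 and 2.17 RPKM, then 5.49 and 3.04, then 8.15 and 4.98.

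AP-1 factors, the immediate early regulators of injury genes, were above uninjured in 9 of 9 included members, 8 of them higher at 3 dpa and 5 at 7 dpa (4 of the 7 with an uninjured mean of at least 1 RPKM). junba was at 1.49 and 3.13 RPKM uninjured, 34.8 and 19.6 at 3 dpa, and 14.7 (A) and 8.87 (B) at 7 dpa. fosab was at 1.04 and 1.16 RPKM, then 7.13 and 3.74, then 7.11 (A) and 1.86 (B), so that 1 library of 7 dpa was as high as 3 dpa and the other nearer to uninjured. Of 23 feedback genes of the ERK pathway, 9 were higher at 3 dpa and 2 at 7 dpa, dusp1 and ier2b. Over all 12357 genes 13.9% were higher at 3 dpa and 5.71% at 7 dpa. spry4, which dampens receptor tyrosine kinase signals, was at 3.73 and 4.55 RPKM, then 14.1 and 16.8, then 5.22 and 3.14, with 1 library of 7 dpa just above and the other just below the uninjured range.

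Collagen genes had the largest distance between 3 and 7 dpa of the lists with 9 or more included genes, with a median log2 of 7 dpa over 3 dpa of -2.68 among those higher at 3 dpa. Of 14 collagen genes 12 were higher at 3 dpa and 7 at 7 dpa, with medians of 3.55 and 1.00 on the log2 scale, and for 12 of 14 the 7 dpa mean was below both 3 dpa libraries. In this list 3 genes entered through 7 dpa alone, and of the other 11, 9 were higher at 3 dpa and 4 at 7 dpa. col1a1a, a chain of type I collagen, was at 16.5 and 22.4 RPKM, then 636.5 and 192.2, then 60.5 and 38.9. col12a1a, a fibril-associated collagen, was at 1.17 and 0.80 RPKM, then 81.6 and 18.4, then 10.6 and 7.14. Of 42 matrix glycoproteins and modifying enzymes 31 were higher at 3 dpa and 18 at 7 dpa (26 and 12 of the 36 with an uninjured mean of at least 1 RPKM). postnb, periostin of activated fibroblasts, was at 3.85 and 3.17 RPKM, then 177.8 and 36.4, then 48.4 (A) and 19.95 (B). fn1a, fibronectin, was at 1.68 and 2.42 RPKM, then 234.6 and 64.7, then 12.1 and 7.11. In each of these 4 genes the 3 dpa WT library was over 3-fold above the mutant one, and the 7 dpa libraries were above both uninjured libraries.

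Of 18 epicardial and retinoic acid genes 11 were higher at 3 dpa and 7 at 7 dpa (9 and 5 of the 16 with an uninjured mean of at least 1 RPKM). aldh1a2, which makes retinoic acid, was at 11.95 and 8.76 RPKM, then 158.4 and 54.0, then 38.9 (A) and 37.7 (B). wt1b, a transcription factor of the activated epicardium, was at 0.56 and 0.63 RPKM, then 33.4 and 7.68, then 3.97 and 1.49. tcf21, which marks epicardium at rest as well, was partly faded, with 9.85 and 9.89 RPKM uninjured, 63.7 and 45.6 at 3 dpa, and 21.1 and 10.96 at 7 dpa. In bulk tissue more cells of a type and more RNA per cell cannot be told apart.

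**Figure D2:**
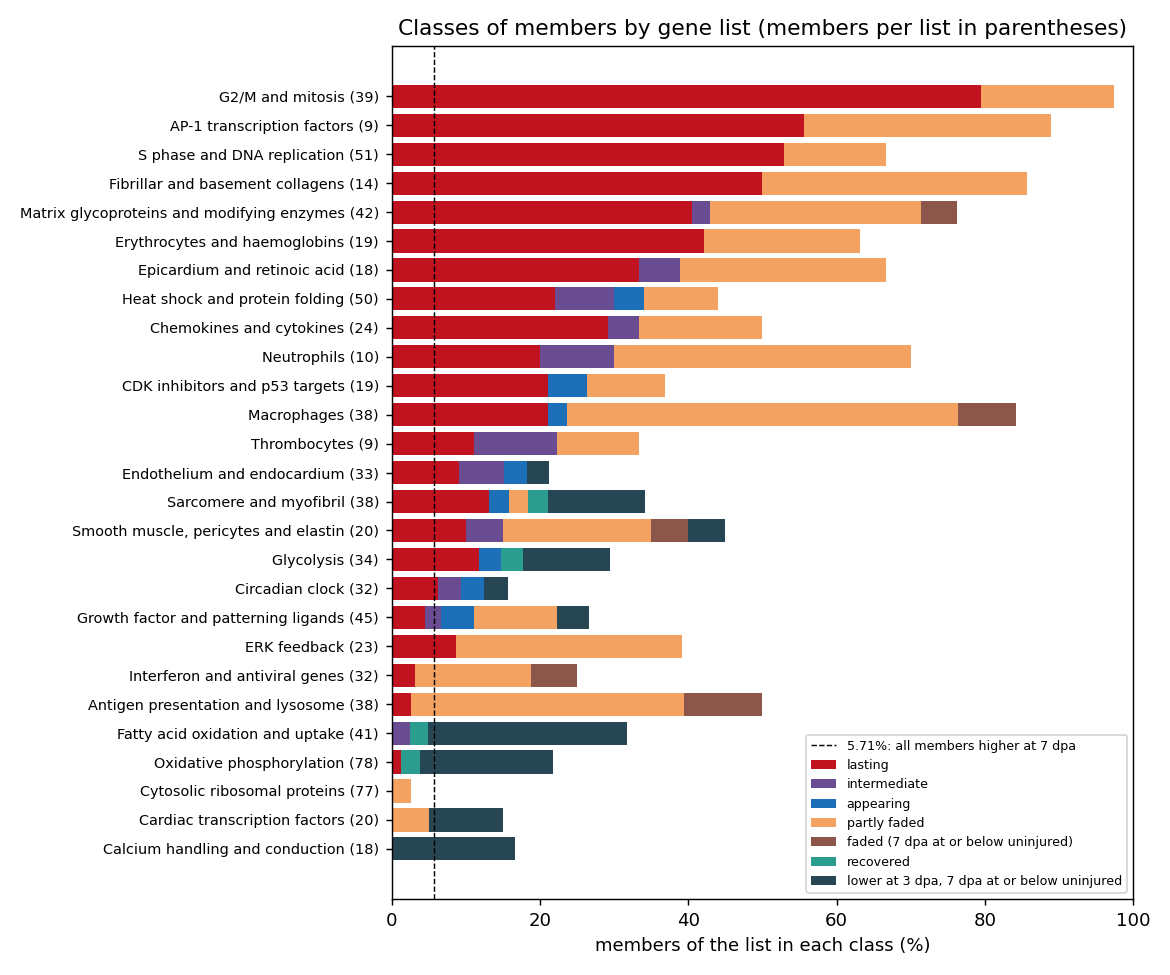
Bars give the percentage of included genes of each list in each class, with the number of included genes in parentheses, for lists of 9 or more; genes in no class fill the rest to 100%. The dashed line marks the 5.71% of all 12357 genes that were higher at 7 dpa. Through 7 dpa alone entered 30 of the 39 G2/M genes and 23 of the 51 S phase genes, so their bars cannot be read against the line. Smaller parts of other lists entered in this way too, such as 3 of 14 collagen genes and 6 of 42 matrix genes. Of 38 macrophage genes 20 are partly faded, and the classed genes of oxidative phosphorylation and fatty acid oxidation are mainly those lower at 3 dpa and not above uninjured at 7 dpa.

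Of 38 macrophage genes 31 were higher at 3 dpa and 9 at 7 dpa (7 of the 34 with an uninjured mean of at least 1 RPKM). Of the 31, 20 were partly faded and 3 faded, together 74.2%, near the 68.9% of all 1713 genes higher at 3 dpa that missed the rule at 7 dpa. mpeg1.1, a perforin expressed by macrophages, was at 3.42 and 2.43 RPKM, then 12.1 and 5.93, then 4.38 and 2.33. grn1, a granulin, stayed higher, with 4.47 and 10.4 RPKM, then 196.9 and 108.6, then 11.2 and 29.5. Of 38 antigen presentation and lysosome genes 19 were higher at 3 dpa and 1, scarb2a, at 7 dpa, and for 28 of 38 the 7 dpa mean was below both 3 dpa libraries. Interferon and antiviral genes gave 8 of 32 at 3 dpa and 1 at 7 dpa. All included genes of both lists had an uninjured mean of at least 1 RPKM. At that level 3.4% of all included genes were higher at 7 dpa, so the 7 dpa counts of both lists lay near this share. The summed level of the 32 macrophage genes above uninjured at 7 dpa was 294.5 and 323.4 RPKM uninjured, 1461 and 953 at 3 dpa, and 458.3 and 432.8 at 7 dpa. The 6 genes at or below uninjured at 7 dpa are left out of this sum. Since the 32 were chosen by a 7 dpa mean above uninjured, the mean of the 7 dpa sums had to exceed that of uninjured. T, B and NK cell genes had 2 included members of 28 in the tables, and neither was higher.

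Red cell genes stayed above uninjured: 19 of 19 were above uninjured at 7 dpa, 12 higher at 3 dpa and 8 at 7 dpa, and the 7 hemoglobin genes took 1.18% and 0.84% of mapped reads in uninjured hearts, 4.43% and 2.69% at 3 dpa, and 4.69% (A) and 2.38% (B) at 7 dpa. hbaa1, an alpha chain, was at 4674 and 3338 RPKM, then 29434 and 14130, then 30134 (A) and 11269 (B). The alpha chain copies hbaa1 and hbaa2 are near-identical, so reads between them may be split. Of 9 genes on the thrombocyte list 9 were above uninjured and 2 higher at 7 dpa, fn1b and itga2b. fn1b was at 15.7 and 19.8 RPKM, then 355.5 and 194.6, then 108.9 (A) and 53.9 (B). itga2b was at 2.44 and 1.54 RPKM, then 5.07 and 0.77, then 5.47 (A) and 2.74 (B). The share of hemoglobin reads thus moved with injury, and its part in the other lists was not tested. Neutrophil genes gave 3 of 10 higher at 7 dpa (2 of the 8 with an uninjured mean of at least 1 RPKM). npsn, a granule protease that entered through 7 dpa alone, was at 0.58 and 1.01 RPKM, then 4.87 and 10.5, then 1.84 and 1.96. lyz, another of the 3, was at 1.35 (WT) and 30.8 (mutant) RPKM at 3 dpa. s100a10b, the last of the 3, was already at 153.0 and 134.4 RPKM in uninjured hearts. mpx, the myeloperoxidase, was at 0.21 and 1.74 RPKM in uninjured hearts and at or below their mean at 7 dpa. It lies outside the included genes and is not among the 10. Chemokine and cytokine genes gave 11 of 24 higher at 3 dpa and 8 at 7 dpa. Of the 22 with an uninjured mean of at least 1 RPKM, 6 were higher at 7 dpa, beside 3.4% of all included genes at that level. Among the 8 was mdka, the growth factor midkine, with 10.97 and 16.5 RPKM, then 884.8 and 250.1, then 69.3 and 52.6.

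Of the faded genes with a 3 dpa mean of at least 3 RPKM, the highest fold at 3 dpa belonged to hmox1a, heme oxygenase 1 (ENSDARG00000027529, chromosome 3, 26011482 to 26017831, minus strand). It was at 2.34 and 6.78 RPKM in uninjured hearts and at 117.3 (WT) and 15.9 (mutant) at 3 dpa, with 7 dpa at or below 4.56 RPKM. pycard, the inflammasome adaptor, was at 1.147 and 1.62 RPKM and then 8.95 and 6.94. ifi30, a thiol reductase of the lysosome, was at 14.2 and 20.6 RPKM and then 65.6 and 59.1, ctsc, cathepsin C, at 13.8 and 17.5 and then 72.9 and 38.4, and pcolcea, which promotes procollagen cleavage, at 10.6 and 14.8 and then 65.6 and 23.8. The other 3 of the 8 named by rule were mafbb, a macrophage transcription factor, ms4a17a.9 and pamr1. The count of faded genes moved with the rule, to 25 at 3-fold, 440 at 1.5-fold and 42 after TMM rescaling of 3 dpa. Without the uninjured mutant library there were 221, and without the 3 dpa mutant library 228.

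**Figure D3:**
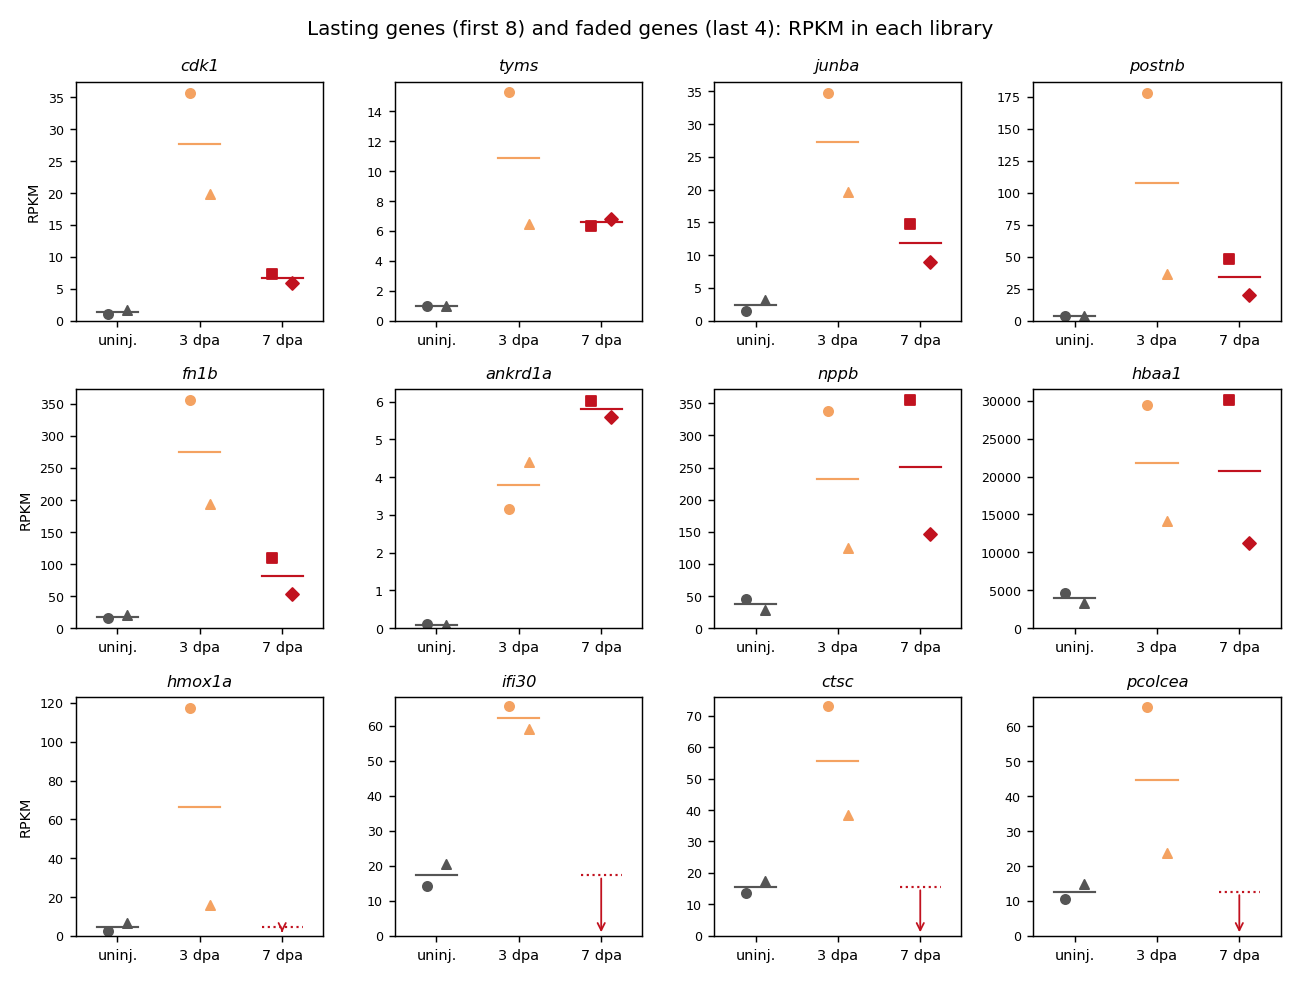
RPKM on linear axes from 0 for 8 lasting and 4 faded genes: circles are WT and triangles dusp6 mutant libraries at uninjured and 3 dpa, squares and diamonds are 7 dpa libraries A and B, and bars are means (at 7 dpa the authors' mean). For the 4 faded genes a dotted bar with an arrow marks the uninjured mean as the upper limit of 7 dpa; cdk1, junba, postnb and fn1b are lower at 7 dpa than at 3 dpa by their means, while ankrd1a is higher in both 7 dpa libraries.

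ankrd1a, which codes for a stretch-responsive ankyrin repeat protein of the sarcomere (ENSDARG00000075263, chromosome 17, 23462972 to 23472265, plus strand), had the largest fold over uninjured among genes of at least 3 RPKM at 7 dpa, clone-based names left out, but its uninjured level is at the 0.1 RPKM added. With 1 RPKM added its log2 over uninjured was 2.65, under that of ACTC1 (3.29), fkbp5 (2.98), postnb (2.96) and f13a1a.1 (2.72), among others. It was at 0.10 and 0.07 RPKM in uninjured hearts, 3.17 and 4.40 at 3 dpa, and 6.03 (A) and 5.60 (B) at 7 dpa, a log2 of 4.98 with both 7 dpa libraries above both 3 dpa libraries. nppb, the B-type natriuretic peptide of wall stress, was at 45.3 and 28.9 RPKM, then 338.7 and 125.1, then 355.2 and 147.1, about as high at 7 as at 3 dpa and with a like spread in both. Its relative nppa was partly faded, with 855.3 and 805.0 RPKM, then 2273 and 1317, then 1396 and 1008.

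Of 7 genes with an alpha-actin name of striated muscle, grouped after their values were seen, 3 stood higher at 7 dpa than at 3 dpa. acta1a (ENSDARG00000036371, chromosome 1, 53945934 to 53953532, plus strand) was at 43.4 and 64.1 RPKM in uninjured hearts, 50.04 and 32.1 at 3 dpa, and 439.4 (A) and 130.8 (B) at 7 dpa. ACTC1, a gene annotated as cardiac alpha-actin, was at 76.8 and 17.9 RPKM, then 118.7 and 38.2, then 697.2 and 246.9. acta1b was at 1108 and 762.1 RPKM, then 396.7 and 310.2, then 1875 and 1396, a log2 of -1.40 at 3 dpa and 0.81 at 7 dpa. In these 3 genes both 7 dpa libraries were above both uninjured and both 3 dpa libraries. Of the other 4, actc1b was at 0.84 and 0.60 RPKM, then 7.37 and 2.84, then 4.77 (A) and 1.14 (B). actc1a_1, actc1a_2 and actc1c were at or below uninjured at 7 dpa. actc1a_2, by far the highest of the 7 in uninjured hearts, was at 8324 and 8452 RPKM, then 2546 and 3556. actc1a_1 was at 574.5 and 13.9 RPKM, then 3.82 and 1209, and actc1c at 1.26 and 4.04, then 0.34 and 1.55. Actin copies are close in sequence, so how reads were shared among them is uncertain.

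Over the whole sarcomere and myofibril list of 38 genes, 21 were above uninjured at 7 dpa (55.3%, against 55.2% of all 12357). Of the 38, 6 were higher at 7 dpa (4 of the 35 with an uninjured mean of at least 1 RPKM). At 3 dpa 6 had been lower, 5 of which were at or below uninjured at 7 dpa. actn2b, an alpha-actinin of the Z disc, was at 1613 and 871.9 RPKM and then 226.0 and 466.4. mybpc3, myosin-binding protein C, was at 783.6 and 698.6 RPKM and then 234.3 and 442.7, and myh7l, a ventricular myosin heavy chain, at 4468 and 4729 and then 1258 and 3340. The embryonic and atrial myosin gene myh6 was at 12.5 and 6.65 RPKM, then 244.4 and 83.0, then 51.7 (A) and 7.63 (B), so that library B lay inside the uninjured range. Of 20 cardiac transcription factors 3 were above uninjured at 7 dpa (15%) and none was higher, and of 18 calcium handling and conduction genes 6 were above (33.3%) and none higher.

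Part of the energy genes was lower at 3 dpa, and most were not above uninjured at 7 dpa. Over all 12357 genes 2.17% were lower at 3 dpa and 55.2% were above uninjured at 7 dpa. The genes lower at 3 dpa numbered 268, and 759 after TMM rescaling, so this class moved with the scaling. Of 78 oxidative phosphorylation genes 16 were lower at 3 dpa, 14 of them at or below uninjured at 7 dpa and 2, atp5mc1 and cox8b, above it. Over the list 33 of 78 (42.3%) were above uninjured at 7 dpa. mt-atp8, encoded in mitochondria, was at 4510 and 4821 RPKM, then 1662 and 2796, then 5754 and 7324, whereas 12 of the 13 mitochondrial protein genes were at or below uninjured at 7 dpa. Of 41 fatty acid oxidation and uptake genes 12 were lower at 3 dpa, and 11 of 41 (26.8%) were above uninjured at 7 dpa. acadvl, the very long chain acyl-CoA dehydrogenase, was at 719.5 and 1010 RPKM and then 204.1 and 557.6. For these genes the pooled value does not show how far 7 dpa had come back. A level between 3 dpa and uninjured and a level below 3 dpa give the same pooled value.

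Glycolysis genes gave 4 of 34 higher and 5 lower at 3 dpa, and 5 higher at 7 dpa. The list median log2 over uninjured was -0.54 at 3 dpa and 0.15 at 7 dpa. Of the 31 with an uninjured mean of at least 1 RPKM, 2 were higher at 7 dpa, beside 3.4% of all included genes at that level. gapdhs was at 78.3 and 89.7 RPKM, then 323.3 and 135.0, then 308.4 and 227.1. hk2, a hexokinase, was at 0.39 and 0.21 RPKM, then 5.59 and 0.89, then 2.02 and 1.57. aldocb, an aldolase, was first high at 7 dpa, with 61.5 and 48.4 RPKM, then 58.6 and 38.5, then 109.5 and 122.0. pkmb, the muscle pyruvate kinase (chromosome 25, 29160102 to 29196558, plus strand), was at 62.9 and 63.0 RPKM, then 19.3 and 33.3, and at or below uninjured at 7 dpa.

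On RPKM without TMM rescaling, chaperone genes had the same median at both time points. Over all members the median was 0.22 at 3 dpa and 0.05 at 7 dpa, and -0.09 at 3 dpa after TMM rescaling. Of 50 heat shock and protein folding genes 47 were above uninjured at 7 dpa, 16 higher at 3 dpa and 17 at 7 dpa (12 of the 45 with an uninjured mean of at least 1 RPKM), with a median log2 over uninjured of 0.61 at each. Among the 11 lasting ones were chaperones of the endoplasmic reticulum. hsp90b1 was at 17.1 and 18.8 RPKM, then 92.7 and 27.6, then 51.0 and 49.2, and hspa5, intermediate because its 3 dpa mutant library lay inside the uninjured range, at 23.5 and 19.2, then 95.1 and 22.7, then 57.9 and 54.5. The cytosolic chaperone hsp90aa1.1 was at 7.76 and 8.77 RPKM, then 13.2 and 7.25, then 50.8 (A) and 49.2 (B), a log2 of 2.58 at 7 dpa. Its 7 dpa libraries were close together and above each of the other 4. hspa4a, an hsp70 relative, was at 10.3 and 6.14 RPKM, then 16.1 and 4.23, then 30.2 and 20.4. Ribosomal protein genes were 74 of 77 above uninjured, none higher by the rule, with a median log2 of 0.24 (0.52 at 3 dpa), and 71 of 77 were below both 3 dpa libraries. TMM rescaling shifts 3 dpa over uninjured by -0.32 and was not applied to 7 dpa. How far the place of these genes against 3 dpa rests on the scaling was not tested.

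Appearing genes numbered 59, and 41 of them had both 7 dpa libraries above both uninjured libraries. igfbp6b, which binds insulin-like growth factors (ENSDARG00000090833, chromosome 23, 36601984 to 36605837, plus strand), was at 16.6 and 14.6 RPKM in uninjured hearts, 15.9 and 7.99 at 3 dpa, and 49.8 (A) and 67.0 (B) at 7 dpa. lbh, a transcriptional cofactor of limb bud and heart (chromosome 13, 51844058 to 51846224, minus strand), was at 65.1 and 49.6 RPKM, then 63.2 and 60.6, then 193.2 and 209.6. coq10b, a coenzyme Q binding protein, was at 19.2 and 11.9 RPKM, then 19.96 and 15.2, then 55.9 and 53.5. aqp8a.1, a water channel of vessel endothelium, was at 276.7 and 227.7 RPKM, then 328.8 and 144.7, then 855.3 and 743.8. In these 4 genes the 7 dpa libraries were within 1.5-fold of each other and lay above the other 4 libraries.

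arg2, an arginase, was at 4.98 and 1.47 RPKM, then 4.27 and 4.56, then 17.7 and 32.3. npas2, a clock transcription factor, was at 2.24 and 2.58 RPKM, then 1.498 and 1.99, then 6.87 and 3.94. mpp2b, a scaffold protein, was at 0.81 and 0.61 RPKM, then 0.52 and 0.62, then 1.26 and 4.99, and the gene with the clone-type name CABZ01080568.1 at 1.91 and 1.30, then 2.17 and 1.22, then 6.54 and 9.69. Without the uninjured WT library 39 genes were appearing, without the uninjured mutant library 28, and without the 3 dpa WT library 101, so that this class turned on single libraries. The endothelial list as a whole gave 3 of 33 higher at 3 dpa and 6 at 7 dpa (5 of the 32 with an uninjured mean of at least 1 RPKM). At 7 dpa 19 of 33 (57.6%) were above uninjured, near the 55.2% of all 12357 genes. The list median log2 over uninjured was -0.11 at 3 dpa and 0.09 at 7 dpa. Among its members higher at 7 dpa were klf2a and heg1, klf2a with a 7 dpa mean below both 3 dpa libraries. klf2a, a flow-responsive transcription factor, was at 9.70 and 8.10 RPKM, then 45.6 and 31.2, then 23.5 and 27.0. heg1 was at 9.79 and 7.73 RPKM, then 15.2 and 15.3, then 16.3 and 24.4.

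**Figure D4:**
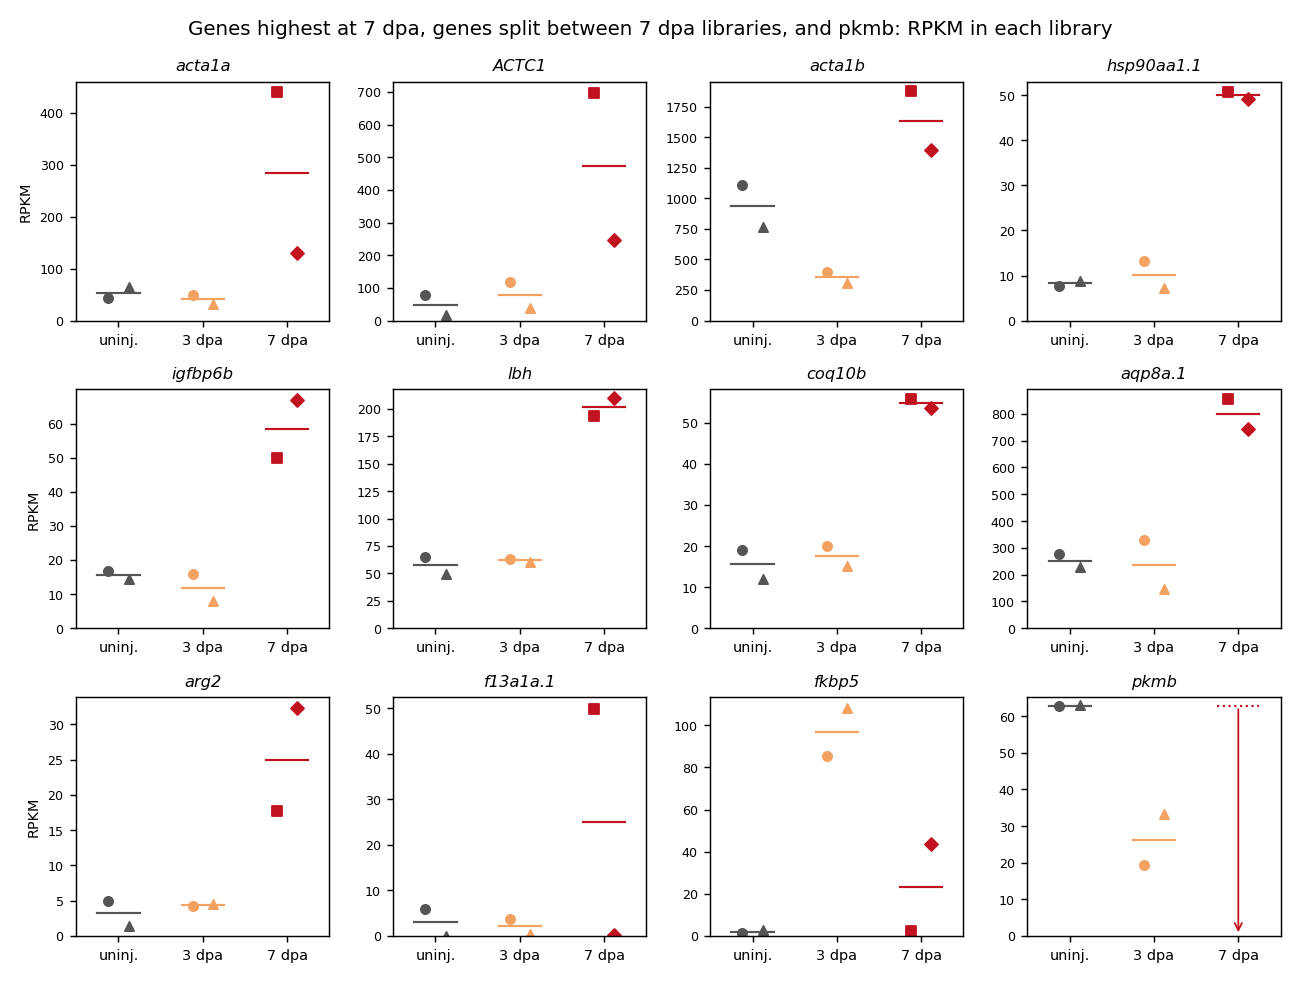
RPKM on linear axes from 0, with symbols as for the lasting and faded genes: circles WT and triangles dusp6 mutant, squares 7 dpa library A and diamonds library B, bars means. hsp90aa1.1, lbh and coq10b have close 7 dpa libraries above the other 4, f13a1a.1 and fkbp5 have 1 high and 1 low 7 dpa library, and the arrow for pkmb marks 7 dpa as at or below the uninjured mean.

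The libraries A and B differed for some of the highest values. Of the 705 genes higher at 7 dpa, 562 had A and B less than 2-fold apart and 46 at least 4-fold apart, 29 with A above B and 17 with B above A. In 57 genes 1 library was not above both uninjured libraries, A in 21 and B in 36. f13a1a.1, a subunit of clotting factor XIII, was at 5.85 RPKM in WT and 0.07 in mutant uninjured hearts, 3.79 and 0.52 at 3 dpa, and 49.9 (A) and 0.09 (B) at 7 dpa, so that its place among the appearing genes rests on library A. fkbp5, a chaperone partner of steroid receptors and a glucocorticoid target in mammals, was at 1.53 and 2.57 RPKM, then 85.6 and 108.0, then 2.19 (A) and 43.8 (B), and A lay inside the uninjured range. sstr2a, a somatostatin receptor, was at 0.24 and 2.34 RPKM, then 2.18 and 1.48, then 0.35 and 9.06. lin7b, a scaffold protein, was at 0.12 and 0.10 RPKM, then 7.79 and 2.57, then 7.18 and 0.88, above uninjured in both.

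**Figure D5:**
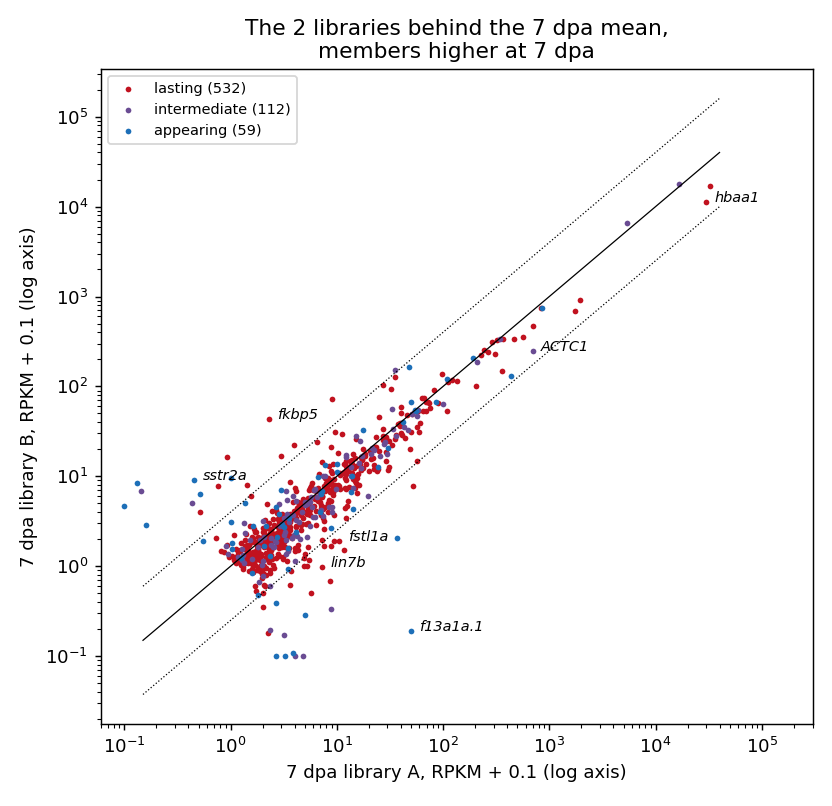
Each point is 1 lasting, intermediate or appearing gene, by its RPKM plus 0.1 in 7 dpa library A (x) and B (y) on log axes, with the line of equality and dotted lines at 4-fold. Most points lie within the dotted lines, and 46 of the 705 genes higher at 7 dpa lie on or outside them, f13a1a.1 the farthest of those named.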

How the data were processed

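RNA of ventricles was sequenced by the study and mapped to GRCz11 in CLC Genomics Workbench. The deposited tables of the 2 uninjured and 2 3 dpa libraries hold, per gene, the authors' read counts and RPKM (reads scaled by exon length and mapped reads). The deposited 7 dpa table holds the authors' larger group mean in RPKM, beside fold changes and p-values of their own comparison, which were not used. The reads of both 7 dpa libraries were recovered from that mean as whole numbers, with a tolerance of 0.1. Strand use in counting is not given in the sources used here.

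Classes used a fold of 2, a pseudocount of 0.1 RPKM and a minimum of 1 RPKM. Counts of 3 dpa against uninjured were tested in edgeR 4.0.16 (TMM, filterByExpr, quasi-likelihood, Benjamini-Hochberg, adjusted p at most 0.01, log2 fold change at least 0.59), with DESeq2 1.42.0 as an alternative. The test was checked on simulated data. The rule for naming genes took, besides those the study discusses, the largest values of each class and up to 3 per list. Outside the lists and the recovered class, 7 dpa or 3 dpa means of at least 3 RPKM were required. The text describes only part of the genes that this rule took. Among those left out are pdlim3a, hrh3, nr4a3, rcan1a and alas1 and, of the study's genes, kmt5ab, hdac7b and irs1. Clone-based names were skipped, except CABZ01080568.1, which the rule for such names did not catch. myl7, cdh5, nppa, pcna, spry4 and other list members given as examples were chosen after their values were seen. Members and lists were chosen with earlier results of these data known. The uninjured and 3 dpa libraries of WT and mutant form only 2 pairs that share a genotype. The libraries of the foxm1 mutant experiment and promoter sequences were not used here. Alternatives were other folds, pseudocounts, filters, scalings, left-out libraries and single 7 dpa libraries.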

Additional observations from a re-analysis of the deposited data

Results flagged for a closer look

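For 3 of the genes named by rule, both 3 dpa libraries were below both uninjured libraries and both 7 dpa libraries above them, so that the 2 time points lay on opposite sides of uninjured. Of the 52 recovered genes 9 had this pattern. The difference between the time points was not tested. acta1b had a log2 over uninjured of -1.40 at 3 dpa and 0.806 at 7 dpa. HIST2H4B, a gene annotated as a histone H4, was at 1.39 and 1.54 RPKM in uninjured hearts, 0.56 and 0.55 at 3 dpa, and 2.49 (A) and 3.83 (B) at 7 dpa, a log2 of 1.06. sh3rf2, a gene for an SH3 and RING finger protein, was at 1.23 and 1.43 RPKM, then 0.42 and 0.77, then 2.32 and 2.57, a log2 of 0.83.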

How the results depend on the processing

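With 2 libraries per state and 1 pooled value at 7 dpa, the counts follow the rule. Genes higher at 7 dpa were 1701 at 1.5-fold, 269 at 3-fold, 369 with a pseudocount of 1 RPKM, 1205 with no filter, 302 at 5 RPKM or more and 397 with an uninjured mean of 1 RPKM or more. Lasting genes under the same 6 settings were 1178, 203, 269, 837, 223 and 282, and appearing genes 163, 24, 31, 123, 27 and 38. Faded genes were 440, 25, 63, 315 and 31 under the first 5 of them, 42 after TMM rescaling and 251 by 7 dpa library B alone. Genes higher at 3 dpa were 3333 with no filter, 708 at 5 RPKM or more and 1137 after TMM rescaling, and genes lower were 163 with a pseudocount of 1 RPKM, 164 at 5 RPKM or more and 759 after TMM rescaling. Leaving out 1 library gave 745 to 911 genes higher at 7 dpa, 1076 to 2577 higher and 221 to 876 lower at 3 dpa, 442 to 670 lasting, 92 to 228 faded and 28 to 101 appearing. On the lists, 177 genes were higher at 7 dpa, 101 with an uninjured mean of 1 RPKM or more and 112 with a pseudocount of 1 RPKM. In the edgeR test of 3 dpa, leaving out 1 library gave 0 to 168 higher and 0 to 5 lower, and DESeq2 1256 and 268. With the genotype as a replicate block 0 genes were called, with a lowest adjusted p of 0.035; WT minus mutant differences correlated at 0.26 across genes between the 2 states, which are only 2 pairs. By single 7 dpa libraries, chosen as a setting after seeing the data, 891 (A) and 600 (B) genes were higher at 7 dpa, and f13a1a.1 turned to -3.997 on the log2 scale in B and sstr2a to -1.62 in A. Of 535 values of named genes under other settings, 396 moved by no more than the spread of the uninjured libraries and 137 by more. This spread was the SD of the folds over each uninjured library alone. Leaving out 1 uninjured library can thus seldom move a value past it, and a gene with unlike uninjured libraries has a wide spread. The 396 therefore do not measure how stable the values are. The 7 dpa values divided by the median ratio (a log2 shift of 0.06) gave 651 genes. The planned search of promoters for motifs was not run.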
